A study of Mus musculus with 6 samples.

Results

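The 4 genes described here encode the islet hormones outside the β cell: *Gcg* (glucagon), *Sst* (somatostatin), *Ppy* (pancreatic polypeptide), and *Pyy* (peptide YY). They were picked by symbol, and each symbol matched 1 of the 32285 genes counted. Islets of 3 WT and 3 β14-3-3ζ–KO libraries were compared, from mice labelled C57/BL6, at an age of 12 to 14 weeks. The study's text gives the background of the KO line as C57BL/6J. In KO mice, exon 4 of both *Ywhaz* alleles was flanked by LoxP sites and removed by an *Ins1*Cre Thor knock-in allele, which drives Cre in β cells, so the cells that make these hormones as their main product were not the cells targeted. In the study's floxed line, control littermates carried Cre as well. Each library was made from the islets of 1 genotype with the droplet-based Chromium 3′ assay, which tags each captured RNA molecule with a random sequence, its unique molecular identifier (UMI). Values below are counts of UMIs in a barcode (a droplet called as a cell) or, as CPM, sums over cells per 1000000 UMIs. Values of single libraries are given in the order of their numbers, 1, 2, and 3. The study's text counts 3 WT and 3 KO mice, while the labels do not tie a library to a mouse, so p-values measure the spread between these 6 libraries.

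Glucagon is cut from proglucagon in α cells, mainly by the convertase Pcsk2, and raises glucose output from the liver. Somatostatin from δ cells restrains the release of insulin and glucagon from neighbouring cells. Pancreatic polypeptide and peptide YY belong to the neuropeptide Y family. The former is the product of PP cells, and the latter is best known from enteroendocrine cells of the gut and is also made in islets. Both act on Y receptors.

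In the annotation of the build named by the submitters (mm10, GRCm38), all 4 genes lie on the minus strand. *Gcg* occupies chr2:62474530-62483650 with 6 exons in its longest transcript, and *Sst* occupies chr16:23889573-23890958 with 2 exons. *Ppy* (chr11:102099930-102101319, 4 exons) and *Pyy* (chr11:102106676-102107832, 4 exons) are direct neighbours, with 5356 bases between them and no annotated gene in the gap. The 250 bases before each start site are shown 5′ to 3′ because *Ppy* and *Pyy* were found together in barcodes (below) while the other genes had their own patterns. They are RefSeq sequences on GRCm38.p6, at chr2:62483654-62483903 for *Gcg*, chr16:23890845-23891094 for *Sst*, chr11:102101320-102101569 for *Ppy*, and chr11:102107833-102108082 for the first of 2 *Pyy* entries. Capitals mark matches on either strand to TATAAA, the letters of a TATA box, and to TGACGTCA, the letters of a full cAMP response element.
Gcg: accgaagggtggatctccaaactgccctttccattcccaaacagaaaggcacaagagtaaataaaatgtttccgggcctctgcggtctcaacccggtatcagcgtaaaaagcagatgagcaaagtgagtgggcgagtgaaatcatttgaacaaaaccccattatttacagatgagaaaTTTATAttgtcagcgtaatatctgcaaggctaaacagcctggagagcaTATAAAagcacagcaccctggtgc
Sst: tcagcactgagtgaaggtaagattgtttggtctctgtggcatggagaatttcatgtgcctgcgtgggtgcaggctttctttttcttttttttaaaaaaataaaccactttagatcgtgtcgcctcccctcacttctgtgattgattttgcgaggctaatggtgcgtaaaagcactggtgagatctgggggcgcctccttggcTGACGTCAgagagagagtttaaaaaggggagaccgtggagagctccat
Ppy: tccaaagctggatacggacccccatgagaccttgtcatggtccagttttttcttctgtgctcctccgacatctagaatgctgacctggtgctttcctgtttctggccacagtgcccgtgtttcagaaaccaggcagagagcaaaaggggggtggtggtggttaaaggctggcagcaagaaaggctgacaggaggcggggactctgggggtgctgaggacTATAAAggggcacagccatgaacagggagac
Pyy: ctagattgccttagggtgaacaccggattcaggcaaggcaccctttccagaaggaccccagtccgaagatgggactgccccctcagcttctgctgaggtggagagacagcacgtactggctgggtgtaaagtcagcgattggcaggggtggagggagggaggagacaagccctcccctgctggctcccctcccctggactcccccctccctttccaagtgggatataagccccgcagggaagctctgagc
TATAAA was found in 12.4% of the 32851 upstream windows of this length in the table and TGACGTCA in 1.55%. *Gcg* held TATAAA at 72 and at 24 bases before the start, the former on the opposite strand, and *Ppy* held it at 31 bases. *Sst* held TGACGTCA, which reads the same on both strands, at 48 bases. The *Sst* window overlaps the gene as annotated above, so its start site differs from the annotated one, and this match lies within the overlap. Neither set of letters was in the *Pyy* window. These matches are a description of the windows.

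Of 43445 barcodes, 39960 had 500 or more genes, with 2977, 10527, and 5436 of them from WT mice and 4732, 9579, and 6709 from KO mice. They held a median of 5310 UMIs. Only 191 of their 39767 distinct barcode sequences (0.48%) occurred in more than 1 library. WT library 1 stood apart, with the fewest barcodes, the highest median (17004 UMIs against 3804 to 9900 in the others), and the lowest median of *Ins2* UMIs in endothelial-like cells (67 against 200 to 479). After barcodes with over 10% mitochondrial UMIs and doublet calls were left out, 25502 cells were clustered with the hormone genes removed from the variable genes, and clusters were named from markers other than the 4 hormones. α-like cells (867) carried *Irx1*, *Irx2*, and *Ttr*, δ-like cells (641) carried *Hhex*, *Rbp4*, and *Ghsr*, and PP cell–like cells (205, with 14 to 43 per library) carried *Tspan8* in 98.5% of cells. *Ghsr* was in 34.5% of δ-like cells. *Rbp4* was in 99.8% of δ-like and 98.2% of α-like cells, at 4930 and 701 CPM in their sums. *Tspan8* was also in 92.8% of δ-like cells and in 37.1% of α-like cells. *Etv1* and *Meis2*, likewise listed as PP cell markers, were in 92.3% or more of the cells of all 3 classes, and *Hhex* was at 0.685 CPM in PP cell–like against 252 CPM in δ-like sums. The *Irx1* level of the PP cell–like sums (2.27 ± 1.30 CPM, SD, n = 6) was far below that of the α-like sums (62.1 ± 10.8 CPM). The targeted gene *Ywhaz* was at 125, 165, and 161 CPM in the β-like sums of WT and at 19.3, 17.0, and 19.4 CPM in KO, against 124 ± 21.4 and 106 ± 9.70 CPM (SD, n = 3) in α-like sums. In PP cell–like sums *Ywhaz* was at 90.1 ± 11.2 CPM in WT and 63.7 ± 9.71 CPM in KO without overlap (exact permutation p = 0.1, the smallest possible), and in δ-like sums at 195 CPM in both. A cluster of 891 cells with transcripts of several endocrine types and 7458 barcodes with a median of 2041 UMIs and a high share of *Ins2*, called shallow insulin barcodes here, were kept as classes of their own.

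Nearly every barcode held RNA of the 4 hormones, and a small minority held most of it. Of the 39960 barcodes, 99.9% had at least 1 UMI of *Gcg*, 97.4% of *Ppy*, 94.6% of *Pyy*, and 91.3% of *Sst*. The median barcode held 19 UMIs of *Gcg*, 5 of *Ppy*, 4 of *Pyy*, and 3 of *Sst*, whereas the barcode at the 99th percentile held 4014, 4769, 1821, and 2055. Each gene thus had a low peak and a long upper tail, and 100 UMIs were taken as the divide. Barcodes with 100 or more UMIs numbered 2984 for *Gcg* (7.47%), 2179 for *Sst* (5.45%), 2644 for *Ppy* (6.62%), and 3594 for *Pyy* (8.99%). They carried 88.2% of all *Gcg* UMIs, 95.2% of *Sst*, 95.4% of *Ppy*, and 93.7% of *Pyy*. The highest single barcode held 29865 UMIs of *Ppy*, and the highest share of a barcode on 1 of the hormones was 58.3%, for *Gcg*. Barcodes with 100 or more UMIs were deeper than the rest (median 15606 UMIs for *Gcg* and 23346 to 24493 for the others, against 5310 overall). Doublet calls took 13.4% of those high in *Gcg*, 6.42% for *Sst*, 8.47% for *Ppy*, and 9.15% for *Pyy*, against 6.17% of all barcodes. Of those high in *Gcg*, 41.2% had over 10% mitochondrial UMIs, against 32.4% of all barcodes and 24.8% of those high in *Ppy*.

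**Figure D1:**
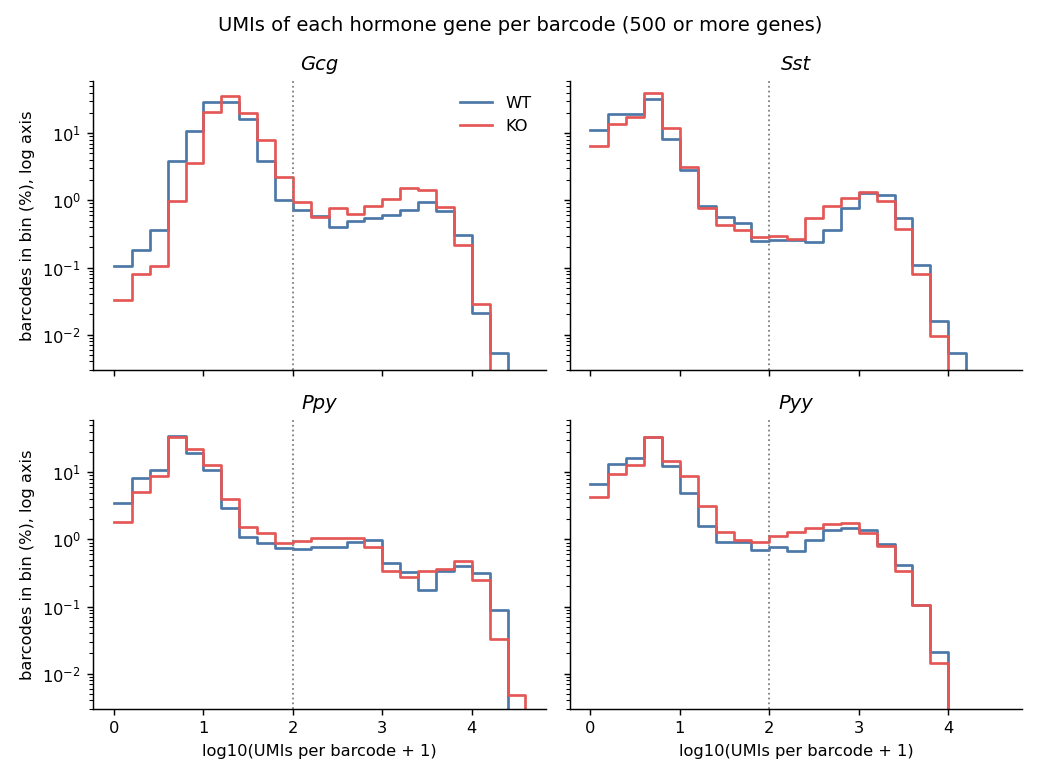
UMIs of each hormone gene per barcode (log10 of UMIs + 1, x axis) against the percentage of WT (blue) or KO (red) barcodes in each bin (log y axis), over 39960 barcodes with 500 or more genes. Each gene has a low peak (median 19, 3, 5, and 4 UMIs for *Gcg*, *Sst*, *Ppy*, and *Pyy*) and an upper tail beyond the dotted line at 100 UMIs.

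A rule based on the share of a barcode's UMIs behaved differently for *Gcg*. At 1% or more of a barcode's UMIs, 8876 barcodes (22.2%) counted as *Gcg*-rich, and 56.0% of them were shallow insulin barcodes, which held a median of only 24 *Gcg* UMIs (1.13% of their UMIs). The same rule gave 2138 *Sst*-rich (5.35%), 2308 *Ppy*-rich (5.78%), and 3264 *Pyy*-rich barcodes (8.17%), nearer to the numbers at 100 UMIs. At 5% or more, 5.07% of barcodes counted as *Gcg*-rich. The rule of 100 UMIs, chosen after this was seen, is used beside the rule of 1% below.

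*Gcg*, the glucagon precursor, was concentrated in α-like cells, where the median cell gave it 19.1% of its UMIs. In the α-like sums it was at 205412, 175089, and 176710 CPM in WT and at 208993, 161723, and 184069 CPM in KO, with the genotypes overlapping. Next came the cluster with several hormones (14724 to 25707 CPM) and the shallow insulin barcodes (10647 to 16316 CPM), whose ranges overlapped. PP cell–like sums followed at 1067 to 6710 CPM, and B-like (1280 to 3948), macrophage-like (507 to 4816), δ-like (811 to 2298), endothelial-like (547 to 2871), and β-like sums (400 to 1770 CPM) had ranges that overlapped each other and the PP cell–like range. Stellate-like sums spread from 750 to 11546 CPM. Of α-like cells, 97.5% held 100 or more *Gcg* UMIs, against 3.12% of δ-like, 10.7% of PP cell–like, and 1.58% of β-like cells. The median α-like cell had 2976 *Gcg* UMIs, and the 5th and 95th percentiles were 309 and 7325.

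*Sst*, the somatostatin precursor, was concentrated in δ-like cells. It was at 94039, 110370, and 96889 CPM in the δ-like sums of WT and at 108107, 99170, and 101551 CPM in KO, and the median δ-like cell gave it 10.2% of its UMIs. The cluster with several hormones was next at 19520 to 26699 CPM, clear of the δ-like range, then the shallow insulin barcodes at 1112 to 2717 CPM, whose range met that of the α-like sums (544 to 1190 CPM). B-like, stellate-like, endothelial-like, β-like, macrophage-like, and PP cell–like sums came last, with medians over the libraries from 448 down to 134 CPM. The B-like range lay above the β-like and PP cell–like ranges and reached into the α-like range, while the ranges of the classes after B-like overlapped each other. Of the 205 PP cell–like cells, 0 held 100 *Sst* UMIs, which allows a share of up to 1.46% by counting error alone, against 98.8% of δ-like cells. In α-like cells 14 of 867 did (1.61%), while the median α-like cell held 3 *Sst* UMIs.

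*Ppy* filled a large part of the PP cell–like cells, at a median of 37.9% of a cell's UMIs. The sums were at 385137, 346208, and 343212 CPM in WT and at 377588, 348916, and 387806 CPM in KO. Unlike *Gcg* and *Sst*, *Ppy* was also high in 2 other endocrine classes. α-like sums held 26532 to 51532 CPM, δ-like sums 24761 to 31819 CPM, and the cluster with several hormones 18375 to 35246 CPM, and these 3 ranges overlapped. The spread among cells differed between the classes. In δ-like cells the median was 343 *Ppy* UMIs and 77.1% had 100 or more, whereas in α-like cells the median was 34 UMIs, 37.5% had 100 or more, and the 95th percentile reached 4085. WT library 1 had the highest share of α-like cells with 100 or more *Ppy* UMIs, 65.5% of its 55 cells, against 29.96% to 45.2% in the other libraries. β-like sums were at 537 to 3788 CPM, with 155 of 6382 cells (2.43%) at 100 or more UMIs and a median of 6.

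*Pyy* was the most widely shared of the 4 genes among endocrine classes. It was highest in PP cell–like sums, at 66562, 80897, and 89407 CPM in WT and 68443, 89504, and 100641 CPM in KO. δ-like sums followed at 42737 to 55497 CPM and α-like sums at 23981 to 30185 CPM, with no overlap between these 3 classes. The cluster with several hormones (16706 to 25522 CPM) overlapped the α-like range. Nearly all δ-like cells held *Pyy*: 96.9% had 100 or more UMIs, and the 5th percentile was 142. In α-like cells 64.1% had 100 or more, with a median of 194 UMIs and a 5th percentile of 6. β-like sums were at 427 to 1508 CPM, and 197 β-like cells (3.09%) had 100 or more.

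**Figure D2:**
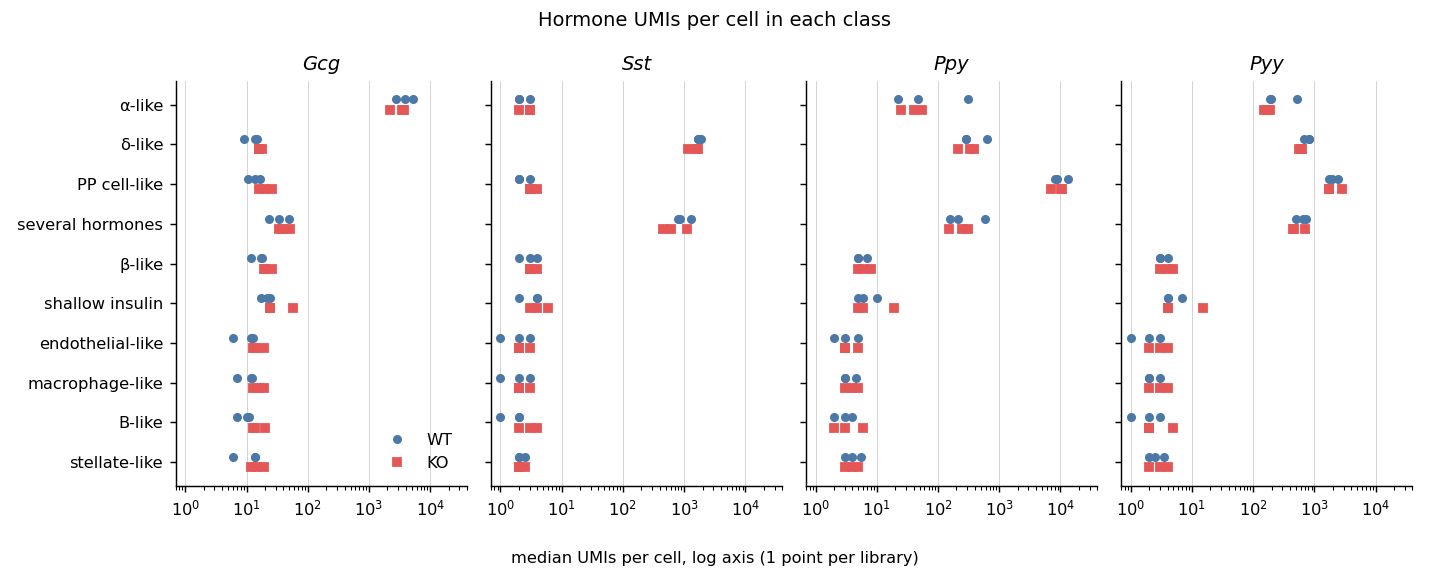
Median UMIs of each hormone gene per cell (log x axis) in each class, with 1 point per library (WT blue circles, KO red squares; n = 3 libraries each). *Pyy* lies above its level in endothelial-like, macrophage-like, and B-like cells in α-like, δ-like, and PP cell–like cells of all 6 libraries, and *Sst* does so in δ-like cells and the cluster with several hormones only.

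The level in immune and endothelial cells, which do not make these hormones, was taken as the free RNA that enters every droplet. Counted in UMIs per cell it was low, with class medians per library of 6 to 20 *Gcg* UMIs in endothelial-like, macrophage-like, and B-like cells. As a share of UMIs it was higher in B-like cells, whose median depth was 4817 UMIs against 8376 in endothelial-like cells. Over 6677 endothelial-like, macrophage-like, B-like, and T-like cells, the median was 15 UMIs of *Gcg*, 4 of *Ppy*, 3 of *Pyy*, and 2 of *Sst*, and the 99th percentiles were 62.2, 24, 19, and 9. A count of 100 was reached by 17 of these cells for *Gcg* (0.255%), by 5 each for *Ppy* and *Pyy* (0.0749%), and by 0 for *Sst*, which allows up to 0.0449%. The few cells over 100 weighed on the sums, as in WT library 2, where 61.5 *Gcg* UMIs per macrophage-like cell stood beside a median of 12. In CPM, *Gcg* in α-like cells exceeded endothelial-like cells by 375-, 123-, and 89.7-fold in WT and by 159-, 56.3-, and 133-fold in KO. *Sst* in δ-like cells exceeded them by 239- to 691-fold, *Ppy* in PP cell–like cells by 413- to 1819-fold, and *Pyy* in PP cell–like cells by 135- to 489-fold over the 6 libraries. Against B-like cells, the corresponding folds were lower, 41.0 to 160 for *Gcg*, 149 to 395 for *Sst*, 202 to 817 for *Ppy*, and 85.3 to 240 for *Pyy*. Both *Sst* folds were lower on average with the hormone genes kept in the variable genes (values below). Against endothelial-like cells, *Ppy* was 40.8- to 205-fold higher in α-like and 37.7- to 148-fold higher in δ-like cells, and *Pyy* was 39.5- to 218-fold higher in α-like and 83.5- to 317-fold higher in δ-like cells. Against B-like cells, these were 20.7 to 99.1 and 18.4 to 66.5 for *Ppy* and 25.1 to 107 and 52.9 to 156 for *Pyy*. In contrast, *Gcg* in δ-like cells was 0.8- to 1.48-fold the endothelial-like level, and *Sst* in PP cell–like cells was 0.429- to 0.81-fold. *Sst* in α-like cells lay between, at 2.87- to 4.60-fold the endothelial-like and 0.913- to 2.19-fold the B-like level.

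The share of cells with at least 1 UMI separated the classes less well. After each cell was thinned to 2000 UMIs, 79.5% of δ-like cells had a *Gcg* UMI and 30.9% of α-like cells had an *Sst* UMI (means of 6 libraries), and endothelial-like cells gave 87.0% and 38.5% and B-like cells 97.4% and 61.3%, so neither share was above background. For *Ppy*, 97.3% of δ-like and 81.3% of α-like cells had a UMI against 54.5% of endothelial-like, 48.2% of macrophage-like, and 74.1% of B-like cells. The α-like range over libraries (78.3% to 87.3%) overlapped the B-like range (57.4% to 88.9%), so the *Ppy* share of α-like cells was not clear of background, and the δ-like range (95.8% to 99.05%) lay above it. For *Pyy* the shares were 100.0% of δ-like and 97.3% of α-like cells against 44.6%, 35.8%, and 59.7%, with no overlap. Before thinning, with median depths of 15922, 16280, and 8376 UMIs, these shares were 100.0%, 99.5%, and 92.7% for *Ppy* and 100.0%, 99.6%, and 89.0% for *Pyy*. Cells under 2000 UMIs left out of the thinned shares were 15 WT and 7 KO endothelial-like cells and 1 WT δ-like cell, with 14 WT and 4 KO B-like cells.

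*Ppy* and *Pyy* were the most frequent pair, in 2484 barcodes. Of the 2644 barcodes with 100 or more *Ppy* UMIs, 93.9% had 100 or more of *Pyy*, from 91.2% to 95.4% between libraries, against 8.99% of all barcodes. Of the 3594 barcodes high in *Pyy*, 69.1% were high in *Ppy*, against 6.62% of all. Barcodes high in *Sst* were also high in *Pyy* in 93.9% of 2179 cases and in *Ppy* in 69.3%. Barcodes high in *Gcg* were also high in *Pyy* in 47.4% and in *Ppy* in 32.0% of 2984 cases, and in *Sst* in 15.4%, against 5.45% of all barcodes. The pair of *Gcg* and *Sst* was the rarest of the 6 pairs, at 460 barcodes. All 4 hormones reached 100 UMIs in 353 barcodes (0.883%). By the rule of 1%, *Sst*-rich barcodes were *Pyy*-rich in 84.0% and *Ppy*-rich in 52.9% of cases, and *Gcg*-rich barcodes were so in 14.0% and 9.47%, with shallow barcodes among them. *Gcg*-rich barcodes were *Sst*-rich in 4.52% by this rule, against 5.35% of all barcodes, so the excess of this pair at 100 UMIs was not seen at 1%. By a rule of 5%, the pairs were fewer. *Ppy*-rich barcodes were *Pyy*-rich in 53.8%, and *Sst*-rich barcodes were *Pyy*-rich in 31.3% and *Ppy*-rich in 9.96%, against 2.04% and 2.03% of all barcodes. *Gcg*-rich barcodes were *Sst*-rich in 2.82% by the rule of 5%, against 2.51% of all. *Ins2* reached 100 UMIs in 97.2% of all barcodes.

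The pairs fell into different classes. Of the 460 barcodes high in *Gcg* and *Sst*, 253 were in the cluster with several hormones, 154 had been left out of the clustering as doublet calls or for their mitochondrial share, and 14 were α-like and 20 δ-like. Of the 955 high in *Gcg* and *Ppy*, 310 were α-like, 233 were in the cluster with several hormones, and 323 were not clustered. Of the 2045 high in *Sst* and *Pyy*, 619 were δ-like, 681 were in the cluster with several hormones, and 663 were not clustered. The 2484 barcodes high in *Ppy* and *Pyy* were spread over the cluster with several hormones (551), δ-like (489), α-like (307), PP cell–like (201), and β-like cells (120), and 757 were not clustered. In the cluster with several hormones, whose median depth was 36012 UMIs, *Sst* reached 100 UMIs in 79.3%, *Gcg* in 36.8%, *Ppy* in 63.6%, and *Pyy* in 85.9% of cells beside a median of 5772 *Ins2* UMIs. Within α-like cells 1.61% were high in *Sst*, and within δ-like cells 3.12% were high in *Gcg*. The part of doublets in these pairs was not tested.

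**Figure D3:**
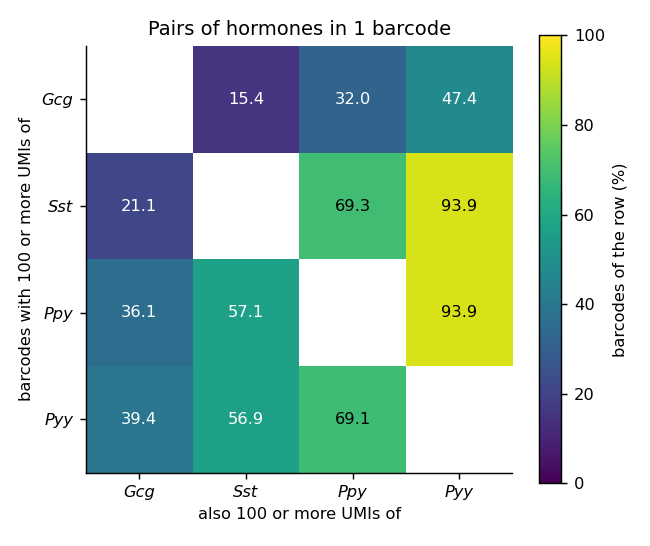
Percentage of barcodes with 100 or more UMIs of the row's hormone that also had 100 or more UMIs of the column's hormone, over 39960 barcodes. The *Ppy* and *Sst* rows reach 93.9% in the *Pyy* column, and the *Gcg* row has its lowest value, 15.4%, in the *Sst* column.

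α-like cells high in *Ppy* were also high in *Gcg*. The 325 α-like cells with 100 or more *Ppy* UMIs had a median of 17.1% of UMIs on *Gcg*, 3.51% on *Pyy*, and 20748 UMIs in all. The other 542 had 19.99% on *Gcg*, 0.587% on *Pyy*, and 14440 UMIs. Median doublet scores were 0.0462 and 0.0442. Within the α-like cells of each library (55 to 267 cells), the Spearman correlation of *Ppy* and *Pyy* per 10000 UMIs was 0.633 to 0.793, which is a description over cells that share a library and a total. In δ-like cells it was -0.0744 to 0.232, and in PP cell–like cells -0.169 to 0.282. The 155 β-like cells with 100 or more *Ppy* UMIs held 1.27% of UMIs on *Pyy* against 0.0128% in the other 6227, with 24.8% and 30.9% on *Ins2*. Their depth was 40697 against 28940 UMIs and their median doublet score 0.0848 against 0.0658, and the part of doublets was not tested. In PP cell–like cells, 22 of 205 had 100 or more *Gcg* UMIs, at a median of 1.99% of UMIs.

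The ratio of *Pyy* to *Ppy* UMIs separated the 3 classes without overlap. It was 1.71 ± 0.17 (SD, n = 6 libraries) in δ-like sums, with 1.38 as its lowest value, 0.761 ± 0.149 in α-like sums, with 0.533 and 0.942 as its range, and 0.227 ± 0.040 in PP cell–like sums, with 0.261 as its highest. In the endothelial-like cells it lay between 0.643 and 0.787, as 64.3 to 78.7 *Pyy* UMIs per 100 of *Ppy*. The other background classes spread more widely, with 57.9 to 86.3 per 100 in B-like and 62.1 to 220 in macrophage-like cells. The value of 220, from WT library 2, was above the δ-like mean. Within each class the genotypes overlapped, and the exact permutation test gave p = 0.5, 0.7, and 0.7 for α-like, δ-like, and PP cell–like sums (0.7 each after adjustment over the 3), where 0.1 is the smallest p that 3 against 3 libraries allow.

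**Figure D4:**
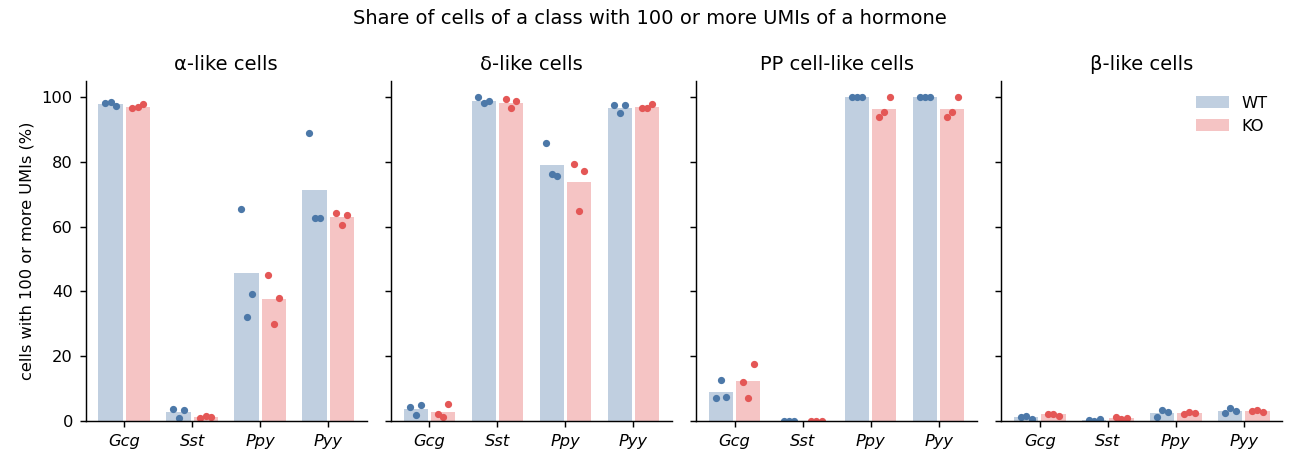
Percentage of α-like, δ-like, PP cell–like, and β-like cells with 100 or more UMIs of each hormone gene. Bars are means of 3 libraries of a genotype and points are libraries (WT blue, KO red). *Pyy* reaches 95.2% or more of δ-like cells in every library, and *Sst* reaches 0% of PP cell–like cells.

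Over 58 sums of a class in a library, and among 6247 genes with a mean of 50 CPM or more in at least 1 class, the genes most like each hormone were ranked by Pearson correlation of log2(CPM + 1). The points share libraries and depth, so the values are descriptive. *Ttr*, the thyroxine carrier transthyretin (r = 0.908), *Irx1* (0.876), *Edn3* (0.828), *Avpr1b*, a vasopressin receptor (0.821), *Irx2* (0.820), and *Tmsb15b2* (0.804) were the most like *Gcg*. *Neurog3*, a transcription factor of endocrine progenitors (0.945), *Bmp3* (0.942), *Cacna2d2* (0.909), *Dpp6* (0.904), *Ly6h* (0.874), and *Syt1* (0.871) were the most like *Sst*. *Neurog3* was at 93.2 CPM in δ-like, 1.98 in α-like, 1.03 in β-like, and 0.186 in PP cell–like sums. *Pyy* was the gene most like *Ppy* (0.964), followed by *Calb1*, which encodes the calcium-binding protein calbindin (0.937), and *Calb1* (0.968) and then *Ppy* were the most like *Pyy*. *Folr1*, *Olfm3*, *Smarca1*, and *Gm609* made up the other 4 names for both. The correlation of *Gcg* with *Sst* was 0.0676. Of the other annotated neighbours, *Mpp2*, which lies 11414 bases from *Ppy*, was at 47.7 CPM in α-like, 54.3 in δ-like, 42.7 in PP cell–like, and 9.50 in β-like sums. *Fap*, next to *Gcg*, was at 0.644 CPM in α-like and 0.353 in δ-like sums, and *Rtp2*, next to *Sst*, at 0.0431 CPM in α-like sums and 0 in δ-like sums.

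Whether loss of 14-3-3ζ in β cells went with other levels of these hormones was asked in sums per library. None of the 4 genes was called in the sums of 10 classes or of all cells together (44 combinations) by the quasi-likelihood test of edgeR after Benjamini-Hochberg adjustment (adjusted p under 0.05, log2 fold change beyond 0.1 either way), a rule that called 0.00721% of all gene tests in these sums. DESeq2 called none either. In their own lineage, the levels of the KO libraries were close to those of WT. For *Gcg* in α-like sums the log2 fold change was 0.01 (SE 0.30, 95% interval -0.63 to 0.65), for *Sst* in δ-like sums 0.06 (SE 0.11, -0.16 to 0.28), for *Ppy* in PP cell–like sums 0.13 (SE 0.23, -0.35 to 0.60), and for *Pyy* in PP cell–like sums 0.20 (SE 0.22, -0.25 to 0.66). *Pyy* differed by -0.02 (-0.45 to 0.42) in α-like and 0.09 (-0.16 to 0.34) in δ-like sums, and *Ppy* by -0.24 (-0.80 to 0.32) in α-like and -0.01 (-0.26 to 0.24) in δ-like sums. The edgeR adjusted p was 0.997 or more in each, and the intervals bound the change in δ-like cells more tightly than in α-like cells.

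Outside their own lineages, *Gcg* and *Sst* were mostly higher in KO without passing the adjusted threshold. The 11 combinations with an unadjusted p under 0.05 in edgeR were all higher in KO, where 1.73% of all gene tests had such a p with KO higher (DESeq2 gave 7 combinations). They were *Sst* in α-like, β-like, PP cell–like, endothelial-like, and B-like sums, *Gcg* in δ-like, β-like, PP cell–like, B-like, and stellate-like sums, and *Pyy* in B-like sums. These combinations repeat the same genes in the same libraries, so they do not count as separate observations. The smallest adjusted p was 0.438, for *Sst* in PP cell–like sums, whose level after TMM scaling was 64.5, 99.8, and 141 CPM in WT and 167, 260.5, and 139 CPM in KO, where the genotypes overlap. *Gcg* in δ-like sums was at 787, 1431, and 1660 CPM in WT and 1644, 2441, and 1989 CPM in KO (log2 fold change 0.65, SE 0.18, unadjusted p = 0.00201, edgeR adjusted p = 0.997). This difference was -0.16 with no mitochondrial limit and -0.15 without doublet calls. *Gcg* in β-like sums was at 449, 1026, and 644 CPM in WT and 1010, 1895, and 959 CPM in KO (log2 fold change 0.87, SE 0.34, edgeR adjusted p = 0.907). The labels give a replicate number and no pairing, and that β-like sums paired by this number was read from the same sums. In a fit that blocks on the replicate number, *Gcg* in β-like sums was called (log2 fold change 0.88, edgeR adjusted p = 0.0373), where 0.15% of all genes were. Its level in β-like sums was 0.345- to 0.792-fold the endothelial-like and 0.248- to 0.508-fold the B-like level. *Ins2* was higher in KO too in the cells taken as background, at 1.08 in endothelial-like, 1.23 in macrophage-like, and 1.13 in B-like sums (edgeR adjusted p = 0.956, 0.902, and 0.652). The median *Gcg* count of an endothelial-like cell was 6, 12, and 13 in WT and 13, 19, and 14 in KO, and the part of free RNA in these differences was not tested. Without WT library 1, *Gcg* differed by 0.39 in δ-like and 0.63 in β-like sums, and without KO library 2 by 0.49 and 0.48. Every KO library was above every WT library in 3 of the 44 combinations after TMM scaling, *Ppy* in PP cell–like, *Gcg* in B-like, and *Gcg* in shallow insulin sums, against 4.29% of all gene tests.

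**Figure D5:**
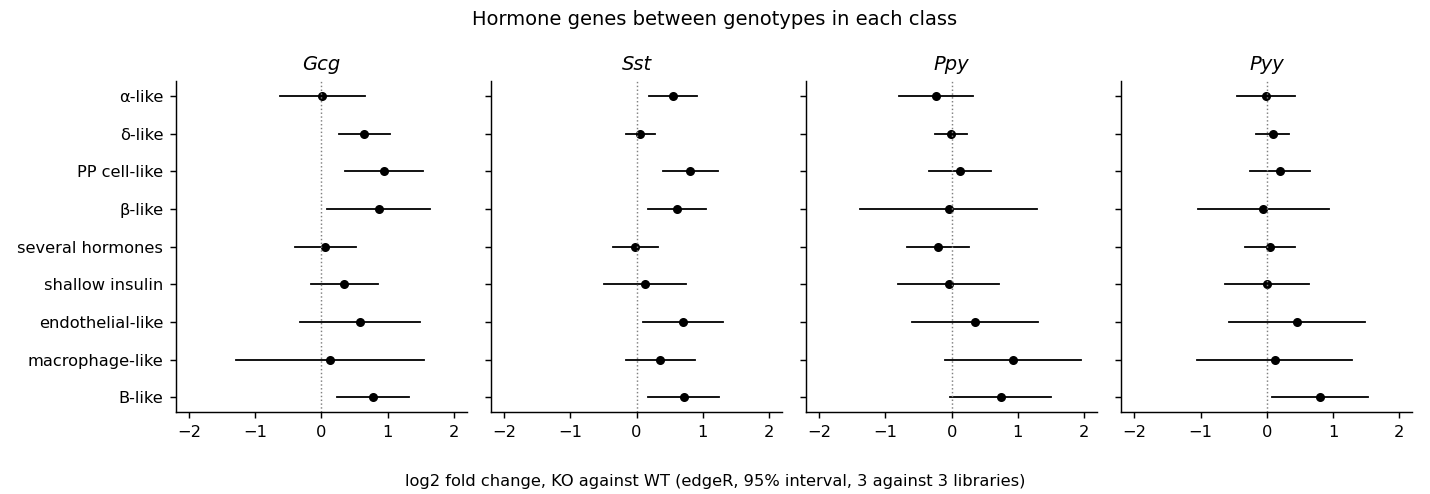
log2 fold change of each hormone gene, KO against WT, in the sums of 9 classes (edgeR, points with 95% intervals, 3 libraries against 3). The points for *Gcg* in α-like, *Sst* in δ-like, and *Ppy* and *Pyy* in PP cell–like sums lie between 0.01 and 0.20, and those for *Gcg* and *Sst* in other classes are mostly higher in KO without passing the adjusted threshold.

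The share of a whole library on each hormone overlapped between the genotypes. In such a total, fewer cells of a type and less RNA per cell cannot be told apart. Over barcodes with 500 or more genes, *Gcg* took 0.779%, 1.07%, and 1.41% of UMIs in WT and 1.16%, 1.63%, and 1.52% in KO (exact permutation p = 0.2). In the sums of all cells, deviations of same-numbered libraries correlated at 0.154, 0.931, and 0.660, although WT library 3 correlated at 0.864 with a KO library of another number. *Gcg* was higher in KO in 3 of 3 same-numbered pairs, while the edgeR fit with the replicate block did not call it (log2 fold change 0.47, edgeR adjusted p = 0.731). *Sst* took 0.605% ± 0.022 in WT and 0.578% ± 0.112 in KO, *Ppy* 1.13% ± 0.24 and 1.10% ± 0.20, and *Pyy* 0.638% ± 0.088 and 0.669% ± 0.105 (SD, n = 3, exact permutation p = 0.7, 0.8, and 0.7). The share of barcodes with 100 or more *Gcg* UMIs was 6.92%, 5.02%, and 7.62% in WT and 8.83%, 8.88%, and 8.45% in KO, which did not overlap (exact permutation p = 0.1, the smallest possible, and 0.4 after adjustment over the 4 genes). The share by the rule of 1% overlapped, at 8.06% to 28.1% in WT and 12.7% to 31.9% in KO. For the 6 pairs, the genotypes overlapped by the rule of 1%, with exact permutation p from 0.4 upward, and 0.9 after adjustment over the 6 pairs. By the rule of 100 UMIs, the pair of *Gcg* and *Pyy* was in 3.36%, 2.15%, and 3.70% of barcodes in WT and 3.89%, 4.70%, and 3.79% in KO, which did not overlap (exact permutation p = 0.1, and 0.6 after adjustment over the 6 pairs), and the other 5 pairs overlapped.

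Receptors, processing enzymes, and regulators of these hormones were then counted over α-like, δ-like, PP cell–like, and β-like sums. None of the 8 processing genes, none of the 12 to 15 tested regulators of 17, none of the 2 to 4 tested receptors of 14, and none of the 7 to 11 tested other islet peptides of 17 was called by edgeR in any of the 4 classes, and DESeq2 called 1, *Ins1* in β-like sums, where it called 6 of all genes. At an unadjusted p under 0.05 edgeR gave 0 in α-like sums, *Npy*, *Ins2*, and *Ins1* in δ-like sums, regulators that included *Pax6* in PP cell–like sums, and *Sstr3*, *Irx1*, *Npy*, and *Ins1* in β-like sums. Over all genes tested, 3.70%, 3.602%, 4.28%, and 4.86% had such a p in α-like, δ-like, PP cell–like, and β-like sums. *Npy*, the neuropeptide related to PP and PYY, was low and spread widely between libraries, at 17.5 ± 17.8 CPM (SD, n = 6, from 6.37 to 52.8) in δ-like and 10.0 ± 9.6 CPM (from 1.79 to 28.1) in β-like sums, with log2 fold changes of 1.96 (SE 0.44, edgeR adjusted p = 0.997) and 2.33 (SE 0.48, edgeR adjusted p = 0.907). The median log2 fold change of the lists lay between -0.08 and 0.21, beside medians of -0.0015 to 0.0018 over all genes tested. *Pcsk2*, the convertase that releases glucagon, was at 4471 ± 349 CPM (SD, n = 6) in α-like, 3747 ± 319 in δ-like, 2624 ± 120 in PP cell–like, and 2325 ± 186 in β-like sums. *Pcsk1*, which yields GLP-1 from proglucagon, was at 202 ± 20 CPM in β-like sums and at 27.3 ± 10.9 in α-like sums, whose range overlapped that of endothelial-like sums (20.8 ± 11.0 CPM). *Hhex*, the δ cell regulator, was at 252 ± 18 CPM in δ-like and at most 4.30 CPM in any α-like sum. Among receptors, the glucagon receptor *Gcgr* was at 13.2 ± 1.6 CPM in β-like and 2.70 ± 0.54 in α-like sums, *Sstr3* at 32.3 to 50.0 CPM on average in all 4 classes, and *Sstr2* at 9.58 ± 2.47 CPM in α-like and 0.0635 ± 0.0421 CPM in β-like sums.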

How the data were processed

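Single-cell RNA-Seq of islets from 3 WT and 3 KO libraries was used. The authors deposited counts of UMIs per gene and barcode as whole numbers without normalization, made with Cell Ranger 6.0.2 on mm10 according to the submitters' processing notes, which also name Seurat. Free RNA was not removed. Barcodes with 500 or more genes were described. Those with at most 10% mitochondrial UMIs and outside the top 0.8% of Scrublet scores per 1000 barcodes were clustered (scanpy 1.11.5, 2000 variable genes, 30 components, 15 neighbours, Leiden resolution 1). A cluster took a name with 3 or more markers, in 10% of cells at 1.5-fold, a second type under 0.7 of the best, and a median of 3500 UMIs. These numbers were set after the clusters were seen. The members and lists were chosen with earlier results of these data known. Sums per library and class (10 classes with 10 or more cells in every library) were tested with edgeR 4.0.16 (R 4.3.3, TMM, filterByExpr, Benjamini-Hochberg over all genes), the alternative being DESeq2 1.42.0. The edgeR fit was checked on simulated data. Single values were compared by 2-sided exact permutation tests. CPM and percentages of UMIs were computed from the deposited counts. Total UMIs per library ranged from 74083947 to 98294915, and libraries of a genotype differed beyond sampling noise (chi-square per degree of freedom 27.2 or more within a genotype). Same-numbered libraries deviated together (all correlations over 0.1) in β-like sums (0.425, 0.454, and 0.544), macrophage-like sums, and sums of all cells (0.154, 0.931, and 0.660), and not in α-like, δ-like, or PP cell–like sums. Named genes were the members, the genes of the fixed lists by their counts, the 6 genes most like each member, neighbours in GENCODE vM21, *Ins2*, and *Ywhaz*. Some list and marker genes are not reported here. A few list genes were given as levels after their values were seen.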

Additional observations from a re-analysis of the deposited data

How the results depend on the processing

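Of 532 recomputed values, 460 kept their direction and call or moved by less than the spread between libraries. Of the rest, 35 reversed, 30 moved, and 7 became stronger. The 460 include shares, ratios, and share differences with a library left out. Such values cannot move by the whole spread, so they counted as kept whatever the data, even where a sign changed. With a library left out, the KO minus WT share of *Gcg*-rich barcodes (rule of 1%) ranged from -2.09 to 8.65 percentage points. No member was called between KO and WT with the settings used in the text. The count was 7 without the filter on low counts (*Sst* in α-like, *Gcg* in δ-like, both in PP cell–like and endothelial-like, and *Ppy* in macrophage-like sums), 2 with the replicate block (*Gcg* in β-like and δ-like sums, although the numbers did not pair the δ-like sums), and 0 to 1 with a library left out (*Sst* in PP cell–like sums without KO replicate 3, log2 fold change 1.00). Over all genes, calls went from 0 to 28 in α-like, 0 to 14 in δ-like, 1 to 10 in PP cell–like, and 1 to 3 in β-like sums without the filter, and to 0, 18, 1, and 21 with the block, against 0, 0, 1, and 6 with DESeq2. The causes were not tested.

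Small log2 fold changes crossed 0, and so did the larger one of *Gcg* in δ-like sums, 0.65 with the settings used in the text. *Gcg* in α-like sums was -0.0065 without TMM. *Pyy* in α-like sums was 0.011 with no mitochondrial limit and 0.0011 with the hormone genes kept in the variable genes. With those genes kept, *Sst* and *Pyy* in δ-like sums were at -0.16 and -0.13, *Ppy* in PP cell–like sums at -0.15, and *Ppy* and *Pyy* in β-like sums at 0.45 and 0.22. With no mitochondrial limit, *Gcg* and *Ppy* in δ-like sums were at -0.16 and 0.10. Without doublet calls, *Gcg* in δ-like sums was at -0.15 and *Ppy* and *Pyy* in β-like sums at 0.51 and 0.75. At resolution 2, *Sst* and *Pyy* in δ-like sums were at -0.17 and -0.014 and *Pyy* in β-like sums at 0.33. *Ppy* in β-like sums was 0.18 with the replicate block. With a library left out, *Gcg* and *Pyy* in α-like sums ranged from -0.10 to 0.12 and from -0.089 to 0.073, *Sst*, *Ppy*, and *Pyy* in δ-like sums from -0.0082 to 0.15, from -0.17 to 0.074, and from -0.058 to 0.18, and *Ppy* and *Pyy* in β-like sums from -0.54 to 0.43 and from -0.54 to 0.29. With no mitochondrial limit or no doublet calls, no cluster was named PP cell–like, so no value was had there. With KO β-like cells that held a *Ywhaz* UMI left out, a choice made after seeing the data, *Gcg* in β-like sums differed by 0.75.

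Shares moved with their thresholds. As means of 6 libraries, *Gcg*-rich barcodes were 21.1% at the rule of 1%, 35.7% at 0.5%, 5.13% at 5%, and 7.62% at 100 UMIs. *Sst*-rich barcodes were 5.91%, 2.85% at 5%, and 7.96% over barcodes with 1000 or more genes. *Ppy*-rich barcodes were 6.27%, 10.5% at 0.5%, 2.12% at 5%, and 8.29% with 1000 or more genes, and *Pyy*-rich barcodes 8.68%, 11.8% at 0.5%, 2.15% at 5%, and 11.8% with 1000 or more genes. Without thinning and at 1000 UMIs, cells with a *Ppy* UMI were 99.5% and 70.7% of α-like, 100% and 91.8% of δ-like, and 92.7% and 31.9% of endothelial-like cells, and those with a *Pyy* UMI 99.6% and 93.4%, 100% and 99.7%, and 89.0% and 28.2%. With the hormone genes kept, *Sst* in δ-like cells was 248-fold the endothelial-like and 116-fold the B-like level, against 499 and 239. In simulated sums, 92.9% of genes changed by 2-fold were called in α-like, 81.6% in δ-like, 67.9% in PP cell–like, and 92.0% in β-like sums, so smaller changes could be missed, most in the 205 PP cell–like cells.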
